A study of Homo sapiens with 28 samples.

Results

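Keratins are the intermediate filament proteins of epithelial cells, and 8 keratin genes (KRT7, KRT8, KRT18, KRT19, KRT5, KRT15, KRT16 and KRT17) are described here in lung cancer cells given azacitidine or decitabine. The members were chosen by name, through the probe sets annotated to them alone. Of the 8 members, 7 had such a probe set among 11963 genes named on the array; KRT17 had none in the probe table and is not analysed here. A filter on dim probe sets passed 4 members, KRT7, KRT8, KRT18 and KRT19, among 8024 genes tested, and these 4 are the brighter members, not all of them. All 4 would have passed on the A549 vehicle arrays alone. The other 3 measured members, KRT5, KRT15 and KRT16, never exceeded the array median and are given from a fit of all 11963 genes without a filter.

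The study exposed A549 and H1299, established human non-small cell lung cancer lines, to either drug at 0.3, 1 or 3 µM for 48 h, with drug renewed every 24 h, or to the vehicle dimethyl sulfoxide, whose exposure time the labels do not give. Azacitidine is a cytidine ribonucleoside analog and decitabine is its 2'-deoxy counterpart, and both bind DNA methyltransferases covalently after they enter DNA. The groups were azacitidine at each dose, decitabine at each dose and vehicle, in A549 and again in H1299, 14 groups of 2 arrays and 28 arrays in all. Each group is 1 cancer line in culture, total RNA was hybridised to one-colour Affymetrix arrays, and nothing in the labels says that replicates were separate cultures, so each p measures the spread between these samples, which may be technical. With 2 arrays a group, precision is limited throughout.

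Keratin filaments are built from pairs of a type II and a type I chain, and a chain left without a partner is degraded. KRT8 (type II) and KRT18 (type I) are the first pair made in embryonic epithelium and the basic pair of simple, single-layered epithelia, KRT7 (type II) and KRT19 (type I) accompany them in glandular, ductal and airway epithelium. KRT5 (type II) and KRT15 (type I) mark basal cells of stratified and airway epithelium, and KRT16 and KRT17 (type I) are induced in wounded or stressed epithelium. KRT8 and KRT18 are neighbouring genes on chromosome 12, where KRT5 and KRT7 also lie, and KRT15 and KRT19 are neighbouring genes on chromosome 17, which also holds KRT16 and KRT17.

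The DNA methyltransferases that both drugs bind methylate cytosine in CG dinucleotides, so the available promoter windows are shown with each CG in capitals. RefSeq windows (GRCh38.p14, 250 bases before to 50 after a start site) were matched for 2 of the 8 members, both on the minus strand. The motif searched was CG, which reads the same on both strands.
KRT8 (chr12:52926420-52926719): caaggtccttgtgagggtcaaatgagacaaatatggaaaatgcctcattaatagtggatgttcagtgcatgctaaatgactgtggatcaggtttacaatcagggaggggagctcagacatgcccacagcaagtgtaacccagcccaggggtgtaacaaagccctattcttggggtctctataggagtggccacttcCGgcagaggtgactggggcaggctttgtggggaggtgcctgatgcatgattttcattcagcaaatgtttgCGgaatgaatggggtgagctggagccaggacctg
KRT5 (chr12:52520345-52520644): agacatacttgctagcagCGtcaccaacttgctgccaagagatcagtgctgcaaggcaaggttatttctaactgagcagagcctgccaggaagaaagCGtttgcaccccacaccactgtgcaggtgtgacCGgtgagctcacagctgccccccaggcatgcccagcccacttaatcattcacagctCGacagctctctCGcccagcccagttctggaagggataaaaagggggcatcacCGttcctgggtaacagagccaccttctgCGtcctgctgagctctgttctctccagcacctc
The KRT8 window holds 2 CG and the KRT5 window 7, against a median of 14 over 35116 windows of the same length, of which 96.0% hold at least 1. Windows with no more CG than KRT8 make up 18.2% of all, and those with no more than KRT5 39.3%. The KRT8 window stands at 1 start site inside the annotated gene, and the array does not tell which start site its RNA came from. Methylation itself was not measured.

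All values are signals on the linear scale of the arrays or differences in log2(signal + 32), where the added 32 damps dim probe sets and so understates their change. A gene is called higher or lower where limma gave a Benjamini-Hochberg adjusted p under 0.05 over all genes tested. Array medians ran from 92.7 to 123, with A549 vehicle replicate 1 the highest, and the 25th percentiles from 18.0 to 28.3. A549 decitabine 3 µM replicate 1 is labelled as a repeat, and no array duplicated another. Of 5 named leukocyte markers 0 exceeded the median on any array, and their summed signal spanned 60.6 to 176 in A549 and 55.5 to 142 in H1299. Of 7 named lung epithelium markers, NKX2-1, SFTPC, SCGB1A1 and FOXJ1 stayed below the median on every array, while EPCAM exceeded it on 20 arrays, SFTPB on 15 and CDH1 on 11. The mesenchymal filament gene VIM was bright in both lines, at 9231 to 12258 in A549 and 6780 to 14128 in H1299. Of the other mesenchymal markers listed, CDH2 and ZEB1 exceeded the median on all 28 arrays and FN1 on 24. FN1 was at 720 to 3425 in A549 and at 12.8 to 270 in H1299.

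Before treatment the lines had different keratin levels. All 4 tested members were higher in A549 vehicle cells than in H1299 vehicle cells, where 32.4% of all genes tested were called higher. This count partly follows from the filter. KRT7 passed it through A549 alone, exceeding the median on 14 of 14 arrays there and on 0 of 14 in H1299. In vehicle cells KRT19 exceeded the median in A549 only. The filter also left out KRT15, which went the other way. KRT7 had a signal of 9942 ± 607 in A549 and 5.97 ± 1.04 in H1299 (SD, n = 2 each), a log2 difference of 8.04 (SE 0.173, adjusted p = 7.38e-20). KRT8 was at 7208 ± 558 in A549 and 378 ± 40.0 in H1299 (log2 difference 4.14, adjusted p = 2.37e-19). These values put A549 as a KRT7-positive and KRT8-positive line and H1299 as one with no KRT7 signal above the array median.
KRT18 was at 12372 ± 1180 in A549 and 4715 ± 186 in H1299 (1.38, adjusted p = 8.27e-11), and KRT19 at 155 ± 22.7 in A549 and 1.23 ± 0.175 in H1299 (2.49, adjusted p = 8.5e-13). The basal keratin KRT15 went the other way, at 5.87 ± 1.32 in A549 and 77.7 ± 13.8 in H1299 (-1.53, adjusted p = 1.97e-07, without a filter, where 45.5% of all genes were called in either direction). Centring each array on its median moved the median of all genes in this comparison to -0.15, against 0.00 without it, and turned the split of all calls to 2039 higher and 3181 lower, against 2601 higher and 2638 lower. The 4 tested members stayed higher in A549 with that centring.

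**Figure D1:**
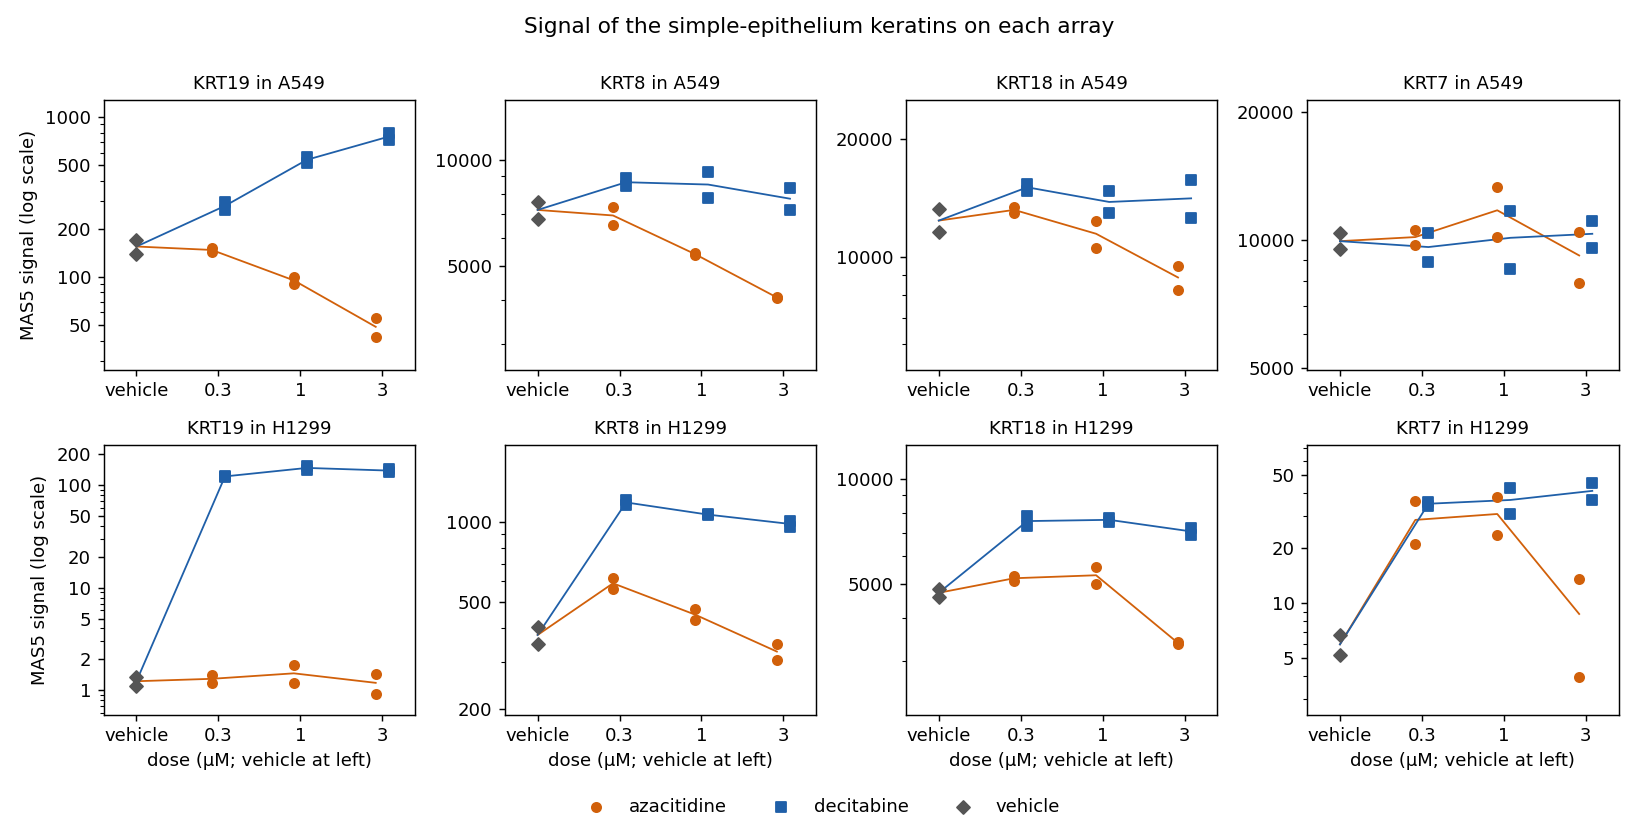
Signal of KRT19, KRT8, KRT18 and KRT7 (log axis, different range in each panel) against dose in A549 (top) and H1299 (bottom); each point is 1 array and lines join group means from the shared vehicle. KRT19 parts by drug in both lines, reaching 42.1 with azacitidine and 795 with decitabine in A549, and KRT7 in H1299 stays at or under 45.5.

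KRT8, the type II chain of the basic simple-epithelium pair, fell with azacitidine in A549 and rose with decitabine in H1299. Its signal in A549 with azacitidine was 6813 and 7602 on the vehicle arrays, 7360 and 6545 at 0.3 µM, 5366 and 5446 at 1 µM, and 4069 and 4079 at 3 µM. With decitabine in A549 it was 8412 and 8859 at 0.3 µM, 7803 and 9209 at 1 µM, and 8309 and 7203 at 3 µM. The azacitidine arrays at 1 and 3 µM thus lay below both vehicle arrays, while the decitabine arrays overlapped the vehicle range at 3 µM. The log2 difference from vehicle was -0.05 at 0.3 µM azacitidine, -0.41 at 1 µM (adjusted p = 0.00326) and -0.82 at 3 µM (SE 0.0958, adjusted p = 1.03e-06). The call at 1 µM was lost with median centring (-0.28, adjusted p = 0.0649). Decitabine gave no call in A549, with 0.26 at 0.3 µM (95% interval 0.06 to 0.46), 0.24 at 1 µM (0.04 to 0.43) and 0.10 at 3 µM (-0.10 to 0.30).

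In H1299 the KRT8 signal with azacitidine was 406 and 349 on the vehicle arrays, 560 and 620 at 0.3 µM, 472 and 429 at 1 µM, and 351 and 303 at 3 µM. With decitabine it was 1157 and 1217 at 0.3 µM, 1066 and 1071 at 1 µM, and 1009 and 962 at 3 µM. Every decitabine array was above every azacitidine and vehicle array of that line. Decitabine raised KRT8 by 1.58 at 0.3 µM (adjusted p = 1.25e-10), 1.43 at 1 µM (adjusted p = 3.73e-10) and 1.32 at 3 µM (SE 0.0958, adjusted p = 1.22e-09), and 3 µM was not called different from 0.3 µM (-0.26, 95% interval -0.46 to -0.06, adjusted p = 0.0911). With azacitidine KRT8 was called higher at the lowest dose only, by 0.60 (adjusted p = 0.000746). At 1 µM both arrays lay above both vehicle arrays, without a call (0.24, adjusted p = 0.059), and at 3 µM the difference was -0.19 (adjusted p = 0.103). Between its own doses azacitidine lowered KRT8 in H1299, by -0.79 at 3 µM against 0.3 µM (adjusted p = 5.14e-07), and did so in A549 by -0.76 (adjusted p = 3.92e-06). The probe sets of KRT8 and KRT18 are of a kind that can hybridise with similar transcripts, and both genes have many pseudogene copies, so part of either signal may come from those.

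KRT18, the type I partner of KRT8, fell with azacitidine at 3 µM in both lines and rose with decitabine in H1299. In A549 its signal was 11538 and 13206 on the vehicle arrays, against which azacitidine gave 13381 and 12964 at 0.3 µM, 10557 and 12348 at 1 µM, and 8261 and 9468 at 3 µM. Decitabine gave 14729 and 15343 at 0.3 µM, 12896 and 14700 at 1 µM, and 15648 and 12538 at 3 µM. The azacitidine arrays at 3 µM were the lowest of the line and fell from vehicle by -0.48 (SE 0.1005, adjusted p = 0.000697). No decitabine dose was called in A549, with 0.28 at 0.3 µM (95% interval 0.07 to 0.49), 0.16 at 1 µM (-0.05 to 0.37) and 0.18 at 3 µM (-0.03 to 0.39).

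In H1299 the KRT18 signal was 4583 and 4846 on the vehicle arrays, and azacitidine gave 5280 and 5103 at 0.3 µM, 4999 and 5591 at 1 µM, and 3396 and 3369 at 3 µM. Decitabine gave 7824 and 7330 at 0.3 µM, 7527 and 7752 at 1 µM, and 6914 and 7238 at 3 µM. The decitabine arrays were above all others of the line and the azacitidine arrays at 3 µM below all others. KRT18 rose with decitabine by 0.68 at 0.3 µM (adjusted p = 6.15e-05), 0.69 at 1 µM (adjusted p = 2.98e-05) and 0.58 at 3 µM (adjusted p = 0.000149). It fell with azacitidine at 3 µM by -0.47 (adjusted p = 0.000411), a difference from vehicle whose A549 minus H1299 contrast was 0.00 (95% interval -0.30 to 0.29).

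KRT19, a type I chain of simple and ductal epithelium that lacks most of the tail domain, had the largest drug difference of the 7 measured members in each line, which in H1299 holds only with the smaller added constants: with one 4 times as large KRT19 differed by -1.02 there and KRT8 by -1.07. In A549 its signal was 171 and 139 on the vehicle arrays, and azacitidine gave 143 and 152 at 0.3 µM, 90.7 and 99.9 at 1 µM, and 42.1 and 55.5 at 3 µM. Decitabine gave 261 and 295 at 0.3 µM, 516 and 565 at 1 µM, and 795 and 714 at 3 µM. The drugs moved it in opposite directions, and each array at 1 and 3 µM lay beyond both vehicle arrays on its own side. KRT19 fell with azacitidine by -0.55 at 1 µM (adjusted p = 0.00545) and -1.21 at 3 µM (SE 0.138, adjusted p = 6.91e-07), with -0.05 at 0.3 µM (95% interval -0.34 to 0.23). It rose with decitabine by 0.73 at 0.3 µM (adjusted p = 0.00186), 1.62 at 1 µM (adjusted p = 4.4e-08) and 2.08 at 3 µM (SE 0.138, adjusted p = 5.67e-10). Decitabine at 3 µM exceeded 0.3 µM by 1.34 in A549 (adjusted p = 4.06e-06). Without A549 vehicle replicate 1 the KRT19 call for azacitidine at 1 µM was lost (-0.43, adjusted p = 0.0867), as it was with 1 in place of 32 added to the signal (-0.69, adjusted p = 0.0775), which also took the decitabine call at 0.3 µM (0.84, adjusted p = 0.0728).

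In H1299 KRT19 was among the dimmest signals, at 1.35 and 1.10 on the vehicle arrays and 0.927 to 1.75 on the 6 azacitidine arrays. Decitabine gave 123 and 119 at 0.3 µM, 152 and 141 at 1 µM, and 143 and 133 at 3 µM, all above the array median. KRT19 was thus near the bottom of the scale on all 8 vehicle and azacitidine arrays, which lay under the 25th percentile, and in the upper part of the array on all 6 decitabine arrays. It rose by 2.20 at 0.3 µM (adjusted p = 1.9e-10), 2.42 at 1 µM (adjusted p = 2.99e-11) and 2.35 at 3 µM (adjusted p = 3.34e-11), with 3 µM against 0.3 µM at 0.15 (95% interval -0.14 to 0.44). Azacitidine gave no call at any dose, with a 95% interval of -0.29 to 0.28 at 3 µM. Since the vehicle signal lies far under 32, the size of these rises depends on the added constant.

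KRT7, the type II chain of glandular epithelium, was bright in A549 and was called by limma in none of its comparisons there, none of them with an unadjusted p under 0.05. Its A549 signal ranged from 7928 to 13326 over the 14 arrays, with a median of 10271. At 3 µM the log2 difference was -0.12 with azacitidine (95% interval -0.48 to 0.24) and 0.05 with decitabine (-0.31 to 0.41).
In H1299 the KRT7 signal was 6.70 and 5.23 on the vehicle arrays, and azacitidine gave 35.9 and 21.1 at 0.3 µM, 38.0 and 23.4 at 1 µM, and 13.5 and 3.95 at 3 µM. Decitabine gave 34.1 and 35.7 at 0.3 µM, 30.8 and 42.5 at 1 µM, and 36.6 and 45.5 at 3 µM. All 14 H1299 values lay below the array median. KRT7 was called higher with decitabine at each dose (0.82, 0.85 and 0.94 from the lowest to the highest, adjusted p = 0.00215, 0.00107 and 0.000285) and with azacitidine at 0.3 µM (0.66, adjusted p = 0.028) and 1 µM (0.71, adjusted p = 0.00275), but not at 3 µM (0.09, 95% interval -0.27 to 0.45). With a constant 4 times as large added to the signal all these KRT7 calls in H1299 were lost, decitabine at 3 µM with 0.33 (adjusted p = 0.0691). The KRT7 call for azacitidine at 0.3 µM was also lost without either H1299 vehicle array (adjusted p = 0.118 and 0.132) or without replicate 1 of that dose (0.255), and the call at 1 µM without replicate 1 of that dose (0.0525). A second KRT7 probe set exceeded the median on 0 of 28 arrays, at 32.5 to 82.3 in A549 and 1.02 to 13.7 in H1299. On that probe set the 2 H1299 decitabine arrays at 3 µM had 3.30 and 2.89, against 6.04 and 6.56 with vehicle, so the dim values of the probe sets do not run the same way.

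Counted over the 4 tested members, azacitidine at 3 µM in A549 lowered 3 (KRT8, KRT18 and KRT19), while 16.2% of all genes tested were called lower. Decitabine at 3 µM in A549 raised 1, KRT19, with 15% of all genes called higher. In H1299 azacitidine at 3 µM lowered 1, KRT18, with 21.6% of all genes called lower, and decitabine at 3 µM raised all 4, with 16.3% called higher. Decitabine also raised all 4 in H1299 at 0.3 µM (8.9% of all genes called higher) and at 1 µM (11.8%). Among these 4 is KRT7, whose H1299 values all lay below the array median. Its decitabine calls there were lost with the 4 times larger constant, and the count at 3 µM was as low as 3 among the alternatives. At the lower azacitidine doses in A549 the counts were 0 called at 0.3 µM, where 2.44% of all genes were called in either direction, and 2 lower at 1 µM (12.1%). Decitabine in A549 raised 1 member at 0.3 µM (4.31%) and 1 at 1 µM (9.78%). Azacitidine in H1299 raised 2 at 0.3 µM (2.46%) and 1 at 1 µM (19.9%). Azacitidine at 3 µM against 0.3 µM lowered 3 members in A549 (13.4%) and 3 in H1299 (21.8%), and decitabine at 3 µM against 0.3 µM raised 1 in A549 (5.67%). Several of these small counts moved when 1 array was left out. In A549 the count for azacitidine at 1 µM became 1 without vehicle replicate 1, that for decitabine at 1 µM became 2 without replicate 1 of that dose, and that for decitabine at 3 µM became 2 without replicate 2 of that dose. In H1299 the count for azacitidine at 0.3 µM became 1 without either vehicle array or without replicate 1 of that dose. That for 1 µM became 2 without vehicle replicate 1 and 0 without replicate 1 of that dose, and that for 3 µM became 2 without vehicle replicate 2 or replicate 1 of that dose. With all arrays kept, the H1299 count for azacitidine at 1 µM became 2 with quantile normalization, median centring or a filter at the 75th percentile. It became 0 with the 4 times larger constant. The median log2 difference of the 4 at 3 µM was -0.65 with azacitidine and 0.14 with decitabine in A549, and -0.10 with azacitidine and 1.13 with decitabine in H1299, where the medians of all genes were 0.06, 0.01, 0.08 and -0.01 in the same order. Fewer cells of a kind and less RNA per cell cannot be told apart in these bulk samples. The drug comparisons with vehicle share the vehicle arrays of their line.

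**Figure D2:**
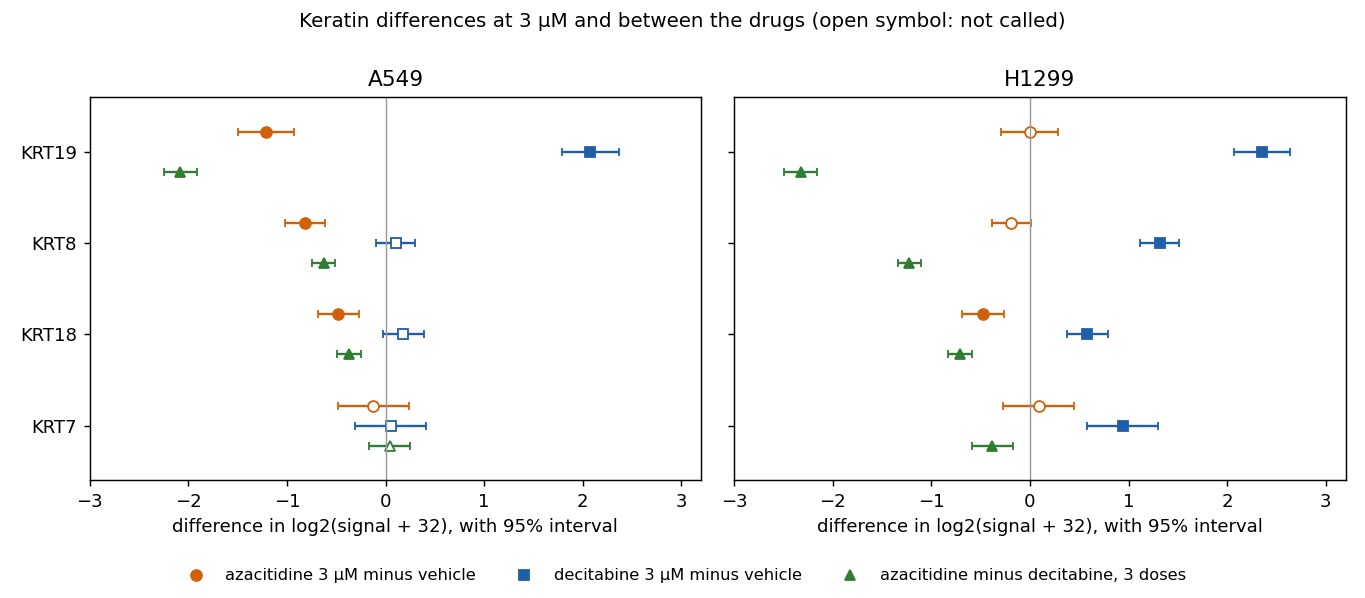
Difference in log2(signal + 32) with its 95% interval for azacitidine 3 µM minus vehicle, decitabine 3 µM minus vehicle, and azacitidine minus decitabine over the matched doses, in A549 (left) and H1299 (right). Open symbols were not called; the drug difference was called lower for KRT19, KRT8 and KRT18 in both lines and for KRT7 in H1299 alone.

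The drugs were compared directly at matched doses, where they differ by the 2'-hydroxyl of the sugar. Averaged over the 3 doses, azacitidine minus decitabine was called lower for 3 of the 4 tested members in A549, where 26.5% of all genes were called lower, and for 4 of 4 in H1299, where 23.1% were. KRT19 differed by -2.08 in A549 (SE 0.0796, adjusted p = 1.17e-14) and -2.32 in H1299 (adjusted p = 1.18e-15). KRT8 differed by -0.63 in A549 (adjusted p = 6.34e-09) and -1.22 in H1299 (adjusted p = 1.12e-13), and KRT18 by -0.37 in A549 (adjusted p = 1.45e-05) and -0.71 in H1299 (adjusted p = 1.61e-09). For KRT7 the difference was -0.38 in H1299 (adjusted p = 0.0029), lost with the 4 times larger constant (-0.14, adjusted p = 0.145), and 0.04 in A549, where the interval of -0.17 to 0.25 bounds it.

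In A549 the differences of KRT19, KRT8 and KRT18 were farther from 0 at each higher dose, and that of KRT7 was not called at any. For KRT19 azacitidine minus decitabine was -0.79 at 0.3 µM (adjusted p = 0.00114), -2.17 at 1 µM (adjusted p = 1.71e-10) and -3.29 at 3 µM (adjusted p = 1.05e-13). For KRT8 it was -0.31 at 0.3 µM (95% interval -0.51 to -0.11, adjusted p = 0.0599), -0.65 at 1 µM (adjusted p = 2.31e-05) and -0.92 at 3 µM (adjusted p = 1.07e-07). The KRT18 values were -0.19 (not called), -0.27 (adjusted p = 0.0431, lost in 6 of its alternatives) and -0.66 (adjusted p = 1.44e-05) from the lowest to the highest dose.
In H1299 KRT19 differed by -2.20 at 0.3 µM, -2.41 at 1 µM and -2.36 at 3 µM, each called. KRT8 there differed by -0.97, -1.19 and -1.51, and KRT18 by -0.54, -0.53 and -1.06, all called. KRT7 in H1299 differed by -0.85 at 3 µM (adjusted p = 0.000275) and was not called at 0.3 µM (-0.16, 95% interval -0.52 to 0.20) or 1 µM (-0.13, -0.49 to 0.23). At single doses in A549, 1, 3 and 3 of the 4 tested members were called lower with azacitidine at 0.3, 1 and 3 µM, against 3.63%, 17.9% and 23.8% of all genes. In H1299 the counts were 3, 3 and 4, against 4.03%, 15% and 23.3% of all genes.

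The size of some responses differed between the lines. The response to azacitidine at 3 µM was lower in A549 than in H1299 for KRT19 (-1.21, adjusted p = 7.62e-05) and KRT8 (-0.63, adjusted p = 0.00132), 2 of 4 members, where 17.5% of all genes tested were called lower. KRT19 was at 1.35 and 1.10 on the H1299 vehicle arrays, where a fall could not be measured. Its azacitidine contrast therefore cannot tell whether the lines responded differently. The response to decitabine at 3 µM was lower in A549 for KRT8 (-1.21, adjusted p = 2.61e-06) and KRT7 (-0.89, adjusted p = 0.0154), 2 of 4, where 7.9% were called lower. The KRT7 call was lost without A549 vehicle replicate 2, without A549 decitabine 3 µM replicate 2 or without H1299 decitabine 3 µM replicate 2, with adjusted p of 0.0523, 0.0609 and 0.0638. For KRT18 the decitabine response differed by -0.40 (adjusted p = 0.0562). For KRT19 it was not called (-0.28, 95% interval -0.69 to 0.13), and that difference turned to 0.60 (adjusted p = 0.000749) with the 4 times larger constant, so its direction is not settled. The drug difference over doses was larger in H1299, which gives a positive A549 minus H1299 value, for KRT8 (0.60, adjusted p = 3.56e-06), KRT7 (0.42, adjusted p = 0.0214) and KRT18 (0.34, adjusted p = 0.00252), 3 of 4, with 17.5% of all genes called higher. The KRT7 call was lost with the 4 times larger constant (adjusted p = 0.211) and without any 1 of 5 arrays (0.0504 to 0.0538), which were A549 azacitidine 1 and 3 µM replicate 2, A549 decitabine 1 µM replicate 1, and H1299 azacitidine 0.3 and 3 µM replicate 2.

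**Figure D3:**
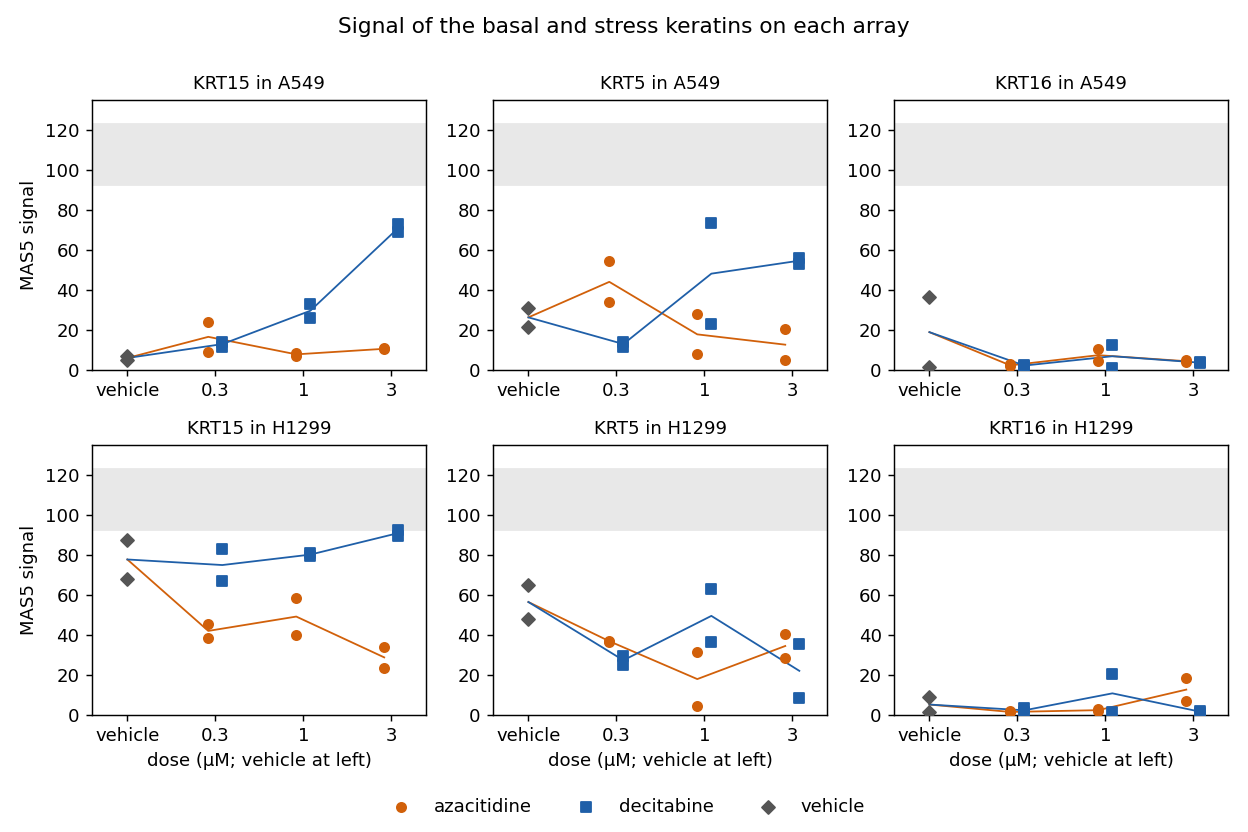
Signal of KRT15, KRT5 and KRT16 (linear axis) against dose in A549 (top) and H1299 (bottom); each point is 1 array, lines join group means, and the grey band spans the array medians, 92.7 to 123. KRT15 with decitabine at 3 µM reaches 72.8 in A549 and 92.6 in H1299, and KRT16 stays at or under 36.3.

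Among the dim members KRT15, a basal-cell type I keratin, rose with decitabine in A549 and fell with azacitidine in H1299. Its A549 signal was 6.80 and 4.93 on the vehicle arrays, 8.84 and 24.1, 6.83 and 8.58, and 10.3 and 10.7 at the rising azacitidine doses, and 14.1 and 11.6, 26.03 and 33.1, and 72.8 and 69.2 at the rising decitabine doses. The 2 arrays with decitabine at 3 µM stood above the other 12. KRT15 rose with decitabine at 3 µM by 1.44 (SE 0.168, adjusted p = 6.15e-06, without a filter, where 16.9% of all genes were called in either direction) and at 1 µM by 0.70 (adjusted p = 0.0102, where 10.8% were), and azacitidine gave no call. The 1 µM call was lost without A549 vehicle replicate 2 (adjusted p = 0.0571) or without A549 decitabine 1 µM replicate 2 (adjusted p = 0.104).

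In H1299 the KRT15 signal was 87.5 and 68.0 on the vehicle arrays, 45.6 and 38.3, 58.5 and 39.7, and 23.3 and 34.1 at the rising azacitidine doses, and 83.0 and 66.9, 79.4 and 81.0, and 89.4 and 92.6 at the rising decitabine doses. Every azacitidine array lay below every vehicle and decitabine array. KRT15 fell with azacitidine at 3 µM by -0.85 (adjusted p = 0.00037, where 36.3% of all genes were called without a filter), with -0.57 at 0.3 µM (adjusted p = 0.0777) and -0.44 at 1 µM (adjusted p = 0.0681). Decitabine was not called, with 0.17 at 3 µM (95% interval -0.18 to 0.52). Azacitidine minus decitabine over the doses was -0.60 in A549 (adjusted p = 4.6e-05, where 37.3% of all genes were called) and -0.68 in H1299 (adjusted p = 1.16e-05, where 36.6% were). The KRT15 response at 3 µM was higher in A549 than in H1299 for azacitidine (1.02, adjusted p = 0.00417, where 19.6% were called) and for decitabine (1.27, adjusted p = 0.00147, where 10.9% were). Both A549 vehicle arrays, at 6.80 and 4.93, lay under the 25th percentile of their array, so a fall of KRT15 could not be measured there. The azacitidine contrast of KRT15 therefore cannot tell whether the lines responded differently.

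KRT5, the type II partner of basal cells, ranged from 4.76 to 73.3 in A549 and from 4.16 to 64.8 in H1299, and its replicates spread widely, as with 23.0 and 73.3 in A549 at 1 µM decitabine. Its 1 call was azacitidine minus decitabine at 3 µM in A549 (-0.98, adjusted p = 0.0204, where 33.6% of all genes were called), from 20.3 and 4.76 with azacitidine against 53.1 and 56.2 with decitabine, and that call was lost without azacitidine 3 µM replicate 2 or either decitabine array. KRT16, the wound-induced type I keratin, lay under the 25th percentile on 26 of 28 arrays and was called by limma in 0 of 28 comparisons, 0 of them with an unadjusted p under 0.05. Its highest value, 36.3, was on A549 vehicle replicate 1, while A549 vehicle replicate 2 had 1.33. Without that second array KRT16 was called lower in all 6 A549 comparisons of a drug with vehicle, azacitidine at 3 µM with -0.91 (adjusted p = 0.00577), so 1 vehicle array decides those calls. KRT16 also resembles KRT14 and KRT17 closely in sequence.

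Outside the 8 members, 24 of 31 other keratins listed had a singly named probe set and 3 of them passed the filter. Azacitidine at 3 µM raised 1 and lowered 1 of these 3 in A549, where 22.1% of all genes rose and 16.2% fell. It raised 1 and lowered 0 in H1299, where 32.3% rose and 21.6% fell. Decitabine at 3 µM raised 0 in A549 (15% of all genes) and 1 in H1299 (16.3%), and lowered 0 in either line. KRT4, a type II keratin of non-keratinising squamous epithelium, fell with azacitidine at 3 µM in A549 by -1.81 (adjusted p = 2.74e-05) and differed by -1.24 between the drugs there (adjusted p = 1.46e-06). It exceeded the median on 9 of 14 A549 arrays and 0 of 14 in H1299, and its other probe set on 0 in either line. KRT10, the type I keratin of cornifying epidermis, was bright in both lines and rose with azacitidine at 3 µM by 0.33 in A549 (adjusted p = 0.00394) and by 0.77 in H1299 (adjusted p = 1.74e-07), and it also rose with decitabine at 3 µM in H1299 by 0.29 (adjusted p = 0.0132), with 0.20 in A549 (adjusted p = 0.0986). KRT9 was not called against vehicle at 3 µM, with -0.72 the farthest from 0 (H1299, decitabine).

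Keratin filaments end on desmosomes and hemidesmosomes, and of 23 listed anchoring genes 15 were tested. With azacitidine at 3 µM in A549 5 fell and 0 rose (median -0.24), where 16.2% of all genes fell and 22.1% rose, led by the plakoglobin gene JUP (-2.31, adjusted p = 6.19e-09), the hemidesmosome integrin ITGB4 (-1.06), the desmosomal cadherin DSG2 (-0.86) and desmoplakin DSP (-0.61). With decitabine at 3 µM in A549 9 rose and 0 fell (median 0.43), where 15% of all genes rose and 10.8% fell, with ITGB4 (1.38, adjusted p = 6.45e-05), periplakin PPL (1.19), plakophilin PKP2 (0.81) and epiplakin EPPK1 (0.73) the farthest. In H1299 at 3 µM azacitidine raised 2 and lowered 6, where 32.3% of all genes rose and 21.6% fell, led by the laminin-binding integrin ITGA6 (-1.70), PPL (-1.04), plectin PLEC (-0.92) and PKP4 (-0.64). Decitabine in H1299 raised 3 (DSP by 1.09, DSG2 by 0.82 and JUP by 0.58) and lowered 3, PLEC by -0.76 among them, which is near the shares of all genes, 16.3% raised and 14.6% lowered. The 2 raised with azacitidine in H1299 became 1 with quantile normalization or median centring. Between the drugs over the doses, 11 of 15 were called lower with azacitidine and 1 higher in A549, and 10 lower and 0 higher in H1299. Of all genes 26.5% were called lower and 27.9% higher in A549, and 23.1% lower and 30.9% higher in H1299.

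**Figure D4:**
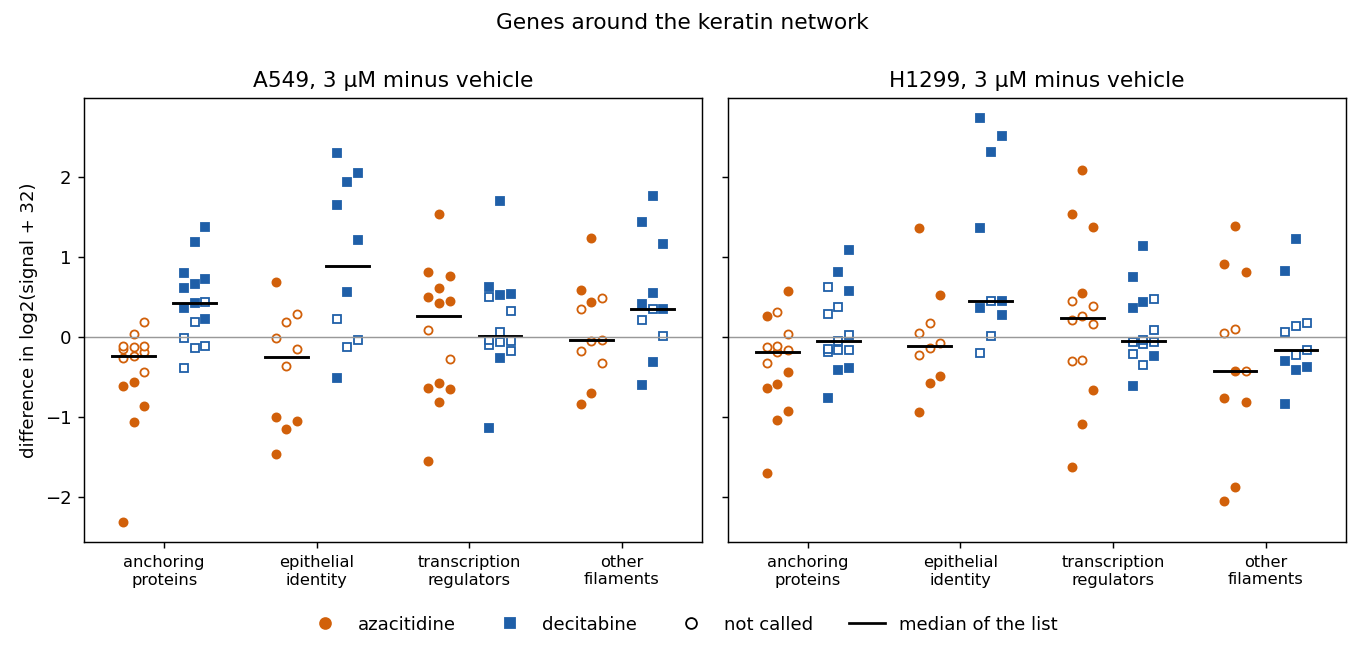
Difference in log2(signal + 32) at 3 µM from vehicle for the tested genes of 4 lists around the keratin network, in A549 (left) and H1299 (right), azacitidine left of decitabine in each pair; filled points were called and the bar is the median of the list. The anchoring genes called in A549 lie below 0 with azacitidine, where JUP is at -2.31, and above 0 with decitabine, where ITGB4 is at 1.38.

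Of 20 genes of epithelial identity 10 were tested, and their counts stand against the same shares of all genes. With decitabine at 3 µM 6 rose and 1 fell in A549 (median 0.89), with the adhesion protein EPCAM (2.30), E-cadherin CDH1 (2.05), claudin CLDN7 (1.94) and the mucin MUC1 (1.65) the farthest. In H1299 7 rose and 0 fell (median 0.45), with the protease inhibitor SPINT2 (2.74), EPCAM (2.51), CLDN7 (2.31) and MUC1 (1.37), while CDH1 was at 0.01. With azacitidine at 3 µM 4 fell and 1 rose in A549 (CDH1 by -1.46 and the adaptor subunit AP1M2 by -1.15 farthest down), and 3 fell and 2 rose in H1299, where CLDN1 rose by 1.36. The H1299 counts with azacitidine are near the shares of all genes, 21.6% lowered and 32.3% raised.
Of 28 regulators named for keratin or epithelial transcription 14 were tested. Azacitidine at 3 µM in A549 raised 7, among them KLF4 (1.54), and lowered 5, among them ELF3 (-1.55) and SOX9 (-0.81), where 22.1% of all genes rose and 16.2% fell. The 5 became 3 without A549 vehicle replicate 1. In H1299 it raised 4, with CEBPB (2.09), CEBPA (1.54) and GATA3 (1.38) the farthest, and lowered 3, with SOX9 at -1.62, which is near the shares of all genes, 32.3% raised and 21.6% lowered. Decitabine at 3 µM raised 4 and lowered 2 in each line, where 15% of all genes rose and 10.8% fell in A549, and 16.3% rose and 14.6% fell in H1299. In A549 the 4 became 2 without decitabine 3 µM replicate 1 and the 2 became 1 without vehicle replicate 1, and in H1299 the 2 became 1 with median centring. ZEB2, a repressor of epithelial genes, fell with decitabine at 3 µM in both lines, by -1.14 in A549 and -0.62 in H1299. ZEB2 is 1 gene picked from a list in which decitabine raised 4 and lowered 2 in each line, so it does not stand for the list. Of 15 other intermediate filament genes 11 were tested. Azacitidine at 3 µM raised 3 and lowered 2 in A549, and raised 3 and lowered 5 in H1299. Decitabine at 3 µM raised 6 and lowered 2 in A549, and raised 2 and lowered 4 in H1299. The 2 lowered with decitabine in A549 became 1 without vehicle replicate 1. These counts stand against the shares of all genes given above, and the genes named next do not stand for the list. The neurofilament gene NEFH rose in all 4 comparisons of 3 µM with vehicle, by 0.59 with azacitidine and 1.76 with decitabine in A549, and by 1.39 and 0.82 in H1299. The lamin genes LMNA (-1.87) and LMNB1 (-2.04) fell with azacitidine in H1299, as did the mesenchymal marker VIM (-0.81), which was not called with either drug at 3 µM in A549. VIM does not stand for the 4 mesenchymal markers listed. Of those 4, azacitidine at 3 µM raised 1 and lowered 2 in A549, and raised 0 and lowered 3 in H1299. Decitabine at 3 µM raised 0 and lowered 1 in each line. The shares of all genes for these comparisons are those given above.

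**Figure D5:**
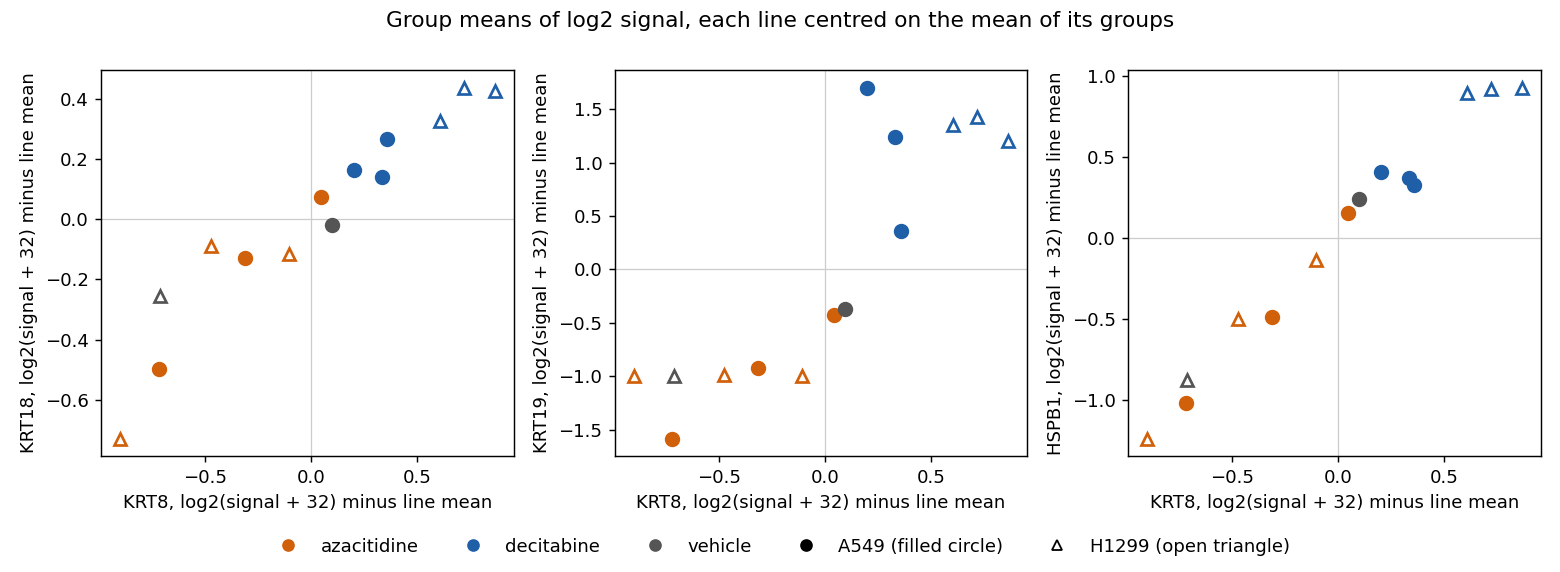
Mean log2(signal + 32) of each of 14 groups minus the mean of the 7 groups of its line, for KRT18, KRT19 and HSPB1 (vertical) against KRT8 (horizontal). Filled circles are A549 and open triangles H1299; the HSPB1 points lie nearest a line, with Pearson's r of 0.99.

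How the members move together was described over the 14 group means, each centred on its line. These points share arrays, scaling and vehicle groups, so the correlations are descriptions only. KRT8 and KRT18 had a Pearson's r of 0.95, KRT8 and KRT19 0.87, KRT18 and KRT19 0.82, and KRT7 and KRT8 0.72. Centred KRT7 values ran from -0.15 to 0.21 in A549 and from -0.58 to 0.36 in H1299. Its H1299 signals all lay below the array median. The KRT7 correlations thus rest largely on dim H1299 values, and do not show that KRT7 moved with KRT8 in A549. The genes nearest to KRT8 were the small heat shock protein gene HSPB1 (0.99), the membrane linker gene EZR (0.96) and KRT18. Those nearest to KRT18 were HSPB1 (0.96), KRT8 and EZR (0.95). HSPB1 had a signal of 1936 ± 252 with azacitidine and 5235 ± 351 with decitabine at 3 µM in A549, and 157 ± 30.6 with azacitidine and 794 ± 52.3 with decitabine in H1299 (SD, n = 2 each). The genes nearest to KRT19 were the potassium channel subunit gene KCNV2 (0.97), the actin-capping protein gene CAPG (0.96) and the prelamin protease gene ZMPSTE24 (0.96), and those nearest to KRT7 were MSL3 (0.91), ERCC1 (0.90) and the gap junction gene GJA1 (0.88).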

How the data were processed

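Gene expression was measured on 28 one-colour arrays of A549 and H1299 cells, 2 for each of 14 groups set by line, drug and dose. The deposited values are MAS5 signals, an intensity on a linear scale, credited to the submitters' processing notes; the version and the scaling target are not given in the sources used here. The 2% trimmed mean of each array was 500.1 to 500.2, so the deposited arrays share 1 scaling. Of 22277 probe sets, 19070 named 1 gene in the supplied table, 1043 several and 2164 none. Probe sets brighter than their array's median on 2 or more arrays passed the filter, and the brightest such probe set (by mean) stood for its gene, giving 8024 genes. Detection calls were not used here.

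Signals were taken as log2(signal + 32). A limma model (limma 3.58.1, R 4.3.3) gave every group its own mean over the 28 arrays together, with 14 degrees of freedom left for the spread, and 28 comparisons were tested with eBayes with an intensity trend, two-sided, Benjamini-Hochberg adjusted over all genes. KRT5, KRT15 and KRT16 come from the same fit without the filter (11963 genes). Scripts were tested on simulated data. Alternatives were other normalizations, added constants and filters, a background covariate, averaging probe sets, a fit of 1 line, eBayes without trend, a replicate block and leaving out each array.

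Named were all members, at most 4 called genes a list and comparison by size, and the 3 genes most correlated with each tested member. The members and lists were chosen with earlier results of these data known. Sequences come from RefSeq windows; no genome was used.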

Additional observations from a re-analysis of the deposited data

Results flagged for a closer look

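Responses were compared between the lines for the 7 measured members in 3 contrasts, and 9 differences passed the adjusted threshold of limma over all genes. All are A549 minus H1299, and a difference that missed the threshold is not shown to be absent. The response to azacitidine at 3 µM differed for KRT8 (-0.626, adjusted p = 0.00132), KRT19 (-1.21, adjusted p = 7.62e-05) and KRT15 (1.02, adjusted p = 0.00417, without a filter). KRT19 lay at the bottom of the scale in H1299 vehicle cells, where a fall could not be measured. The response to decitabine at 3 µM differed for KRT7 (-0.887, adjusted p = 0.0154), KRT8 (-1.21, adjusted p = 2.61e-06) and KRT15 (1.27, adjusted p = 0.00147, without a filter). KRT15 started at 5.87 in A549 and 77.7 in H1299, both under the array medians. Its A549 vehicle arrays also lay under the 25th percentile, so a fall of KRT15 with azacitidine could not be measured in that line. The difference between the drugs over the doses differed for KRT7 (0.42, adjusted p = 0.0214), KRT8 (0.596, adjusted p = 3.56e-06) and KRT18 (0.336, adjusted p = 0.00252). KRT7 lay below the array median on all 14 H1299 arrays. Both its calls here were lost when some single arrays were left out, and that for the drug difference also with the 4 times larger constant. The part that the unequal vehicle levels of the lines play in these 9 differences was not tested.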

How the results depend on the processing

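Of 1111 alternatives to a called difference of KRT7, KRT8, KRT18 or KRT19, 1074 kept the call, 37 lost it and 0 turned its direction; most losses were KRT7 in H1299 or between the lines with a 4 times larger added constant or without 1 array, and KRT18 in A549 between the drugs at 1 µM. For KRT15, KRT5 and KRT16, 188 of 203 kept it. Among differences not called under either setting, 51 of the first kind changed sign. With that constant the KRT19 line difference turned to 0.60 for decitabine at 3 µM and to -0.46 for the drug difference. The keratins called with decitabine at 3 µM in A549 numbered 1 and became 2 without a filter, which adds KRT15; with 1 array left out they were 1 to 2. Those called with azacitidine at 3 µM in H1299 numbered 1 and became 2 with quantile normalization and 2 without a filter, and 1 to 2 with 1 array left out. The decitabine response differed between the lines for 2 keratins, and for 1 to 3 with 1 array left out. The other keratin counts at 3 µM against vehicle, over the matched doses and between the lines stayed within 1.5 times where tried. Counts at 0.3 and 1 µM were less stable: azacitidine in H1299 at 0.3 µM went to 1 against 2, decitabine in A549 at 0.3 µM to 0 against 1 with 1 as the added constant, and the drugs in A549 at 0.3 µM to between 0 and 3 against 1. Whether replicate numbers pair the samples is not settled (correlation over 0.1 in 9 of 21 group pairs in A549 and 3 of 21 in H1299). With the replicate block the keratin counts were unchanged, 3 with azacitidine and 1 with decitabine at 3 µM in A549, and 1 and 4 in H1299. Counts of the 4 gene lists, tried with other scalings and without A549 vehicle replicate 1 or A549 decitabine 3 µM replicate 1 after seeing the data, stayed within 1.5 times in 64 of 64 alternatives when both directions were added, but 10 counts in 1 direction moved by more. Median centring moved the median of all genes by over 0.1 in A549 with azacitidine at 0.3 µM (to 0.09) and 1 µM (to 0.12), in A549 for azacitidine 3 µM against 0.3 µM (to -0.02, against 0.09), in H1299 for that comparison (to 0.00, against 0.12), and between the vehicle groups (to -0.15). The causes were not tested, and signals under the array median limit what can be said of KRT5, KRT15, KRT16 and KRT7 in H1299.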
